A study of Mus musculus with 6 samples.

Results

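Androgens shape gene expression in the proximal tubule of the mouse kidney, and male kidneys differ from female kidneys in many enzymes and transporters. Kap (kidney androgen-regulated protein), Odc1 (ornithine decarboxylase, the rate-limiting enzyme of polyamine synthesis), and Gusb (the lysosomal enzyme beta-glucuronidase) are the classical androgen-induced mRNAs of mouse kidney. With them stand Acsm3 (a medium-chain acyl-CoA synthetase), Prlr (the prolactin receptor), and Cyp7b1 (an oxysterol and steroid 7-alpha-hydroxylase). These 6 genes were chosen by name, as the probes that carry one of the 6 gene names, and they account for 6 of 37325 genes and for 12 of 56605 probes on the array.

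The kidneys came from 3 WT mice (C57BL/6J) and 3 Selenbp1-KO mice. The knockout animals lack Selenbp1 and have the same strain label. All 6 were males of 8 weeks, fasted for 20 h, and each whole left kidney was read on 1 one-color array. The methods give a commercial breeder for the C57BL/6J males and refer to earlier work for the knockout line. No source used here says whether the genotypes were littermates, and circulating androgen was not analysed here. All arrays lie on 1 slide, whose array positions are numbered in 2 sides, with WT replicates 2 and 3 on slide side 1 and WT replicate 4 and the 3 Selenbp1-KO replicates on slide side 2, so that only WT replicate 4 shares a side with the Selenbp1-KO arrays. The probe of the targeted gene Selenbp1 read 7.02 to 7.07 in WT kidneys and 3.98 to 4.13 where it was deleted, so every array matched its label (difference −2.96, limma, adjusted p = 0.0021), although it stayed well above background on all 3 Selenbp1-KO arrays.

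Values are log2 signals, the log2 intensity of a probe minus that of the array's 75th percentile, so that 0 is the 75th percentile and differences between genotypes are differences of log2 signals. By the scanner software's flag, all 12 probes were well above background on all 6 arrays. The sequences and their positions show where a transcript was read. The probes of Kap, Odc1, and Prlr below each keep a reading frame without a stop codon before their last codon. Other probes of the 6 genes do too, so such a frame does not show that coding sequence was read. The 3 probes printed next lie at chr6:133799925-133799984 on the minus strand, chr12:17554799-17554858 on the plus strand, and chr15:10255629-10255688 on the plus strand of mm9.
Kap (NM_010594): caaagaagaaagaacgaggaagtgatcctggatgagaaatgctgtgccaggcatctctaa
Odc1 (NM_013614): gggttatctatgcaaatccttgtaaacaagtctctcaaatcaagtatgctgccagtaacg
Prlr (NM_011169, NM_001253782, and NM_001253781): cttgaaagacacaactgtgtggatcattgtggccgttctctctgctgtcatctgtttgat
The Prlr sequence is shared by 3 RefSeq mRNAs, while the other Prlr probes read 1 mRNA each, NM_011169 and NM_001253781. The second Cyp7b1 probe (XM_006535384) spans 23829 bases of chromosome 3, so that its 60 bases join separate parts of the gene, and is shown for that reason.
Cyp7b1 (XM_006535384): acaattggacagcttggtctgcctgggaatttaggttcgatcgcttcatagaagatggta

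None of the 6 genes, and none of their 12 probes, passed the study's criterion for a difference between genotypes, a limma p under 0.05 without adjustment. Over the whole array 8.00% of genes passed it, 6.87% higher and 1.13% lower in Selenbp1-KO kidneys, and 5.48% of the genes well above background on all arrays did. Of all probes 7.98% passed, 6.47% higher and 1.51% lower, and 0.00357% passed after adjustment. Kap, Odc1, Gusb, Acsm3, and Cyp7b1 had higher means in Selenbp1-KO kidneys and Prlr a lower one, except that Kap was lower with quantile normalization (−0.11) and that Kap, Odc1, and Prlr changed sign with the choice of WT arrays. The median difference of the 6 genes, Selenbp1-KO minus WT, was 0.18, against 0.02 over the 18364 genes well above background on all arrays and 0.13 over all 37028 genes tested. Of those 2 sets, 55.1% and 68.4% of genes had higher means in Selenbp1-KO kidneys, so counts of higher genes are to be read beside these shares. In none of the 6 were the genotypes free of overlap, as they were for 14.1% of genes and for 19.2% of the genes well above background on all arrays. The lowest p adjusted over all probes was 0.328, for Acsm3 (limma, Benjamini–Hochberg).

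**Figure D1:**
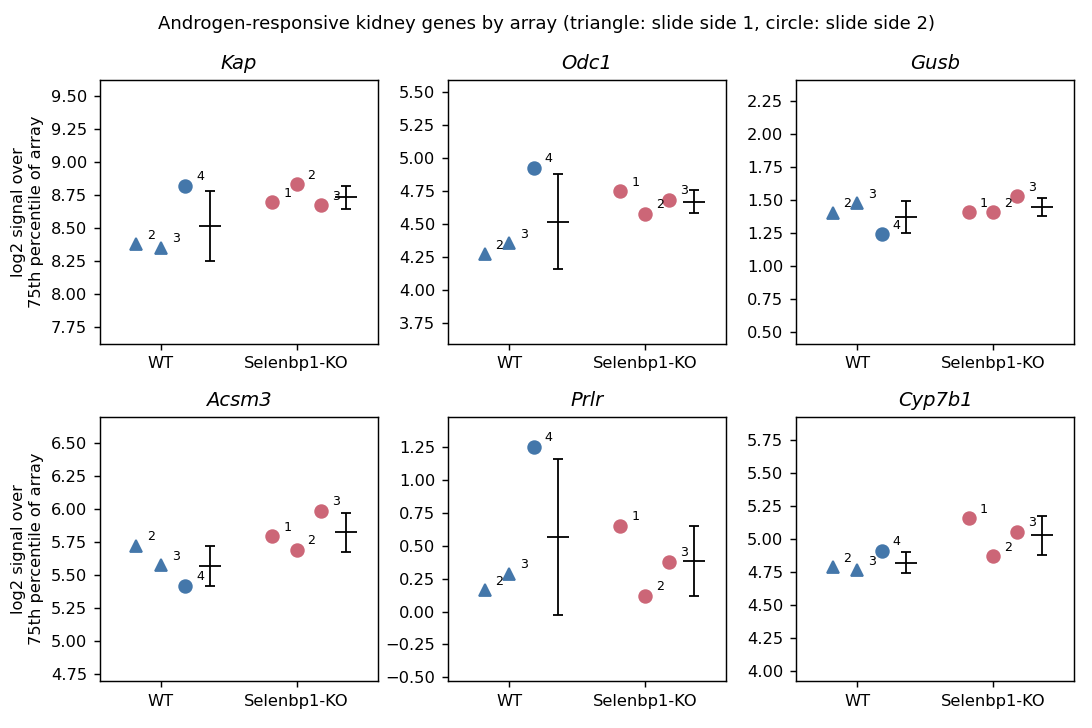
Log2 signal of the brightest probe of each gene (y axis, relative to the 75th percentile of the array) in the 3 WT and 3 Selenbp1-KO kidneys (x axis), with the replicate number beside each point. The bars are the mean and SD (n = 3); the genotypes overlap in every panel, and WT replicate 4 lies above WT replicates 2 and 3 for Kap, Odc1, Prlr, and Cyp7b1.

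Kap encodes a small secreted protein of the proximal tubule. Its probe read 8.38, 8.35, and 8.82 in the WT kidneys (replicates 2, 3, and 4 in this order throughout), compared with 8.70, 8.83, and 8.67 in the Selenbp1-KO kidneys (replicates 1, 2, and 3). WT replicates 2 and 3 were the lowest arrays, and WT replicate 4 lay among the Selenbp1-KO arrays. The means were 8.52 ± 0.26 (SD, n = 3) and 8.73 ± 0.085 (SD, n = 3), a difference of 0.22, or a 1.16-fold ratio, with a 95% confidence interval from −0.17 to 0.60 (limma, unadjusted p = 0.220).

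Odc1 was read by 2 probes. The brighter (NM_013614, chr12:17557831-17557890, plus strand) gave 4.27, 4.36, and 4.93 in the WT kidneys, compared with 4.75, 4.58, and 4.69 in the Selenbp1-KO kidneys. As with Kap, WT replicates 2 and 3 were the lowest, but here WT replicate 4 was above every Selenbp1-KO array. The difference was 0.15, with an interval from −0.32 to 0.63 (limma, unadjusted p = 0.461), and the probe printed above differed by 0.17, with an interval from −0.24 to 0.58. At the probe printed above, WT replicate 4 (1.72) was below Selenbp1-KO replicate 1 (1.80).

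Gusb was the gene with the smallest difference of the 6. Its brighter probe (NM_010368, chr5:130465133-130465192, minus strand) read 1.40, 1.48, and 1.24 in the WT kidneys, compared with 1.41, 1.41, and 1.53 in the Selenbp1-KO kidneys. The difference was 0.08, with an interval from −0.20 to 0.35 (limma, unadjusted p = 0.524). Here WT replicate 4 was the lowest array. The second Gusb probe (ENSMUST00000122994, chr5:130475555-130475614 of mm9, minus strand) was higher on each Selenbp1-KO array, from −0.46 to −0.39, than on any WT array, from −0.65 to −0.50. It differed by 0.14 (limma, unadjusted p = 0.205). It was the only one of the 12 probes without overlap between genotypes, which 13.3% of all probes showed.

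Acsm3 had the largest difference of the 6. Its brighter probe (NM_212441, chr7:126928021-126928080, plus strand) read 5.72, 5.57, and 5.42 in the WT kidneys, compared with 5.79, 5.69, and 5.98 in the Selenbp1-KO kidneys. Selenbp1-KO replicate 2 lay just below WT replicate 2, and the other values were apart. The difference was 0.25, a 1.19-fold ratio, with an interval from −0.07 to 0.58 (limma, unadjusted p = 0.107). The second probe (AK143946) differed by 0.24, with an interval from −0.10 to 0.58.

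Cyp7b1, which removes oxysterols and the neurosteroid dehydroepiandrosterone by hydroxylation, was steady among WT kidneys. Its brighter probe (NM_007825, chr3:17972286-17972345, minus strand) read 4.79, 4.76, and 4.91 in the WT kidneys, compared with 5.16, 4.87, and 5.05 in the Selenbp1-KO kidneys. Selenbp1-KO replicate 2 was below WT replicate 4, and the other Selenbp1-KO arrays were above all WT arrays. The difference was 0.21, with an interval from −0.09 to 0.50 (limma, unadjusted p = 0.134). The probe across the intron differed by 0.20, with an interval from −0.13 to 0.53.

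Prlr varied most among the WT kidneys. The probe of NM_011169 (chr15:10259066-10259125, plus strand) read 0.16, 0.29, and 1.25 in the WT kidneys, compared with 0.65, 0.12, and 0.38 in the Selenbp1-KO kidneys. WT replicate 4 was the highest array at all 3 Prlr probes. The difference was −0.18, with an interval from −0.96 to 0.60 (limma, unadjusted p = 0.588). The probe of NM_001253781 differed by −0.38, with an interval from −1.11 to 0.35, and the probe shared by the 3 mRNAs by −0.12, with an interval from −0.63 to 0.39. The 3 intervals overlap.

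**Figure D2:**
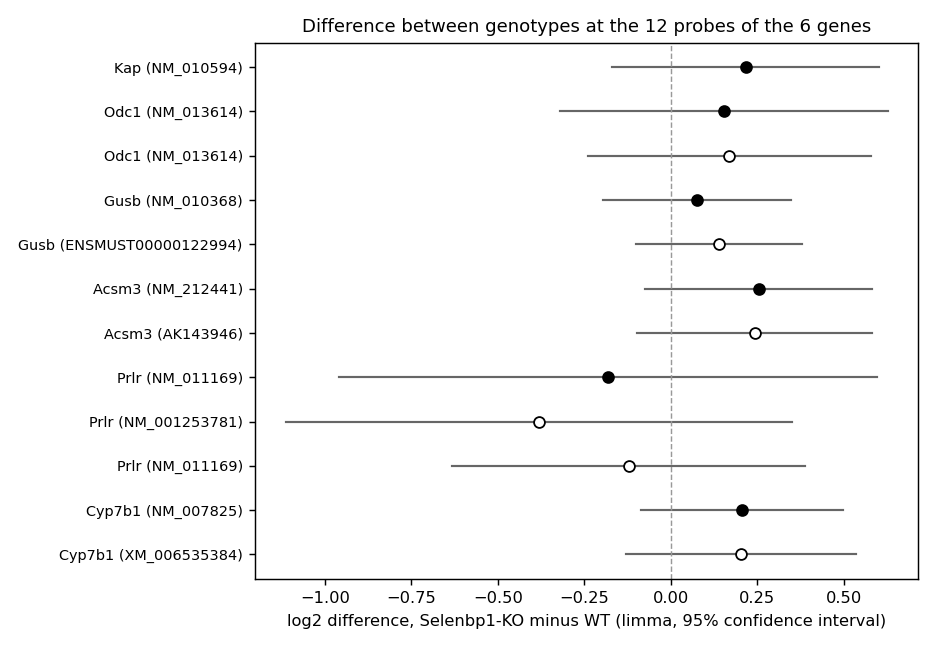
Log2 difference, Selenbp1-KO minus WT (x axis), at each of the 12 probes (y axis, gene and accession), with the 95% confidence interval from limma. Filled points are the brightest probe of a gene; as scaled here 9 probes lie above 0 and 3, those of Prlr, below, and every interval holds 0. With quantile normalization the Kap probe is at −0.11.

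WT replicate 4 lay apart from WT replicates 2 and 3, the arrays of the other slide side, for Kap, Odc1, and Prlr. For Kap and Odc1, WT replicates 2 and 3 were the lowest of the 6 arrays. For Kap, WT replicate 4 lay among the Selenbp1-KO arrays of its own side. WT replicate 4 exceeded the mean of WT replicates 2 and 3 by 0.46 for Kap, 0.62 for Odc1, and 1.02 for Prlr, and by 0.14 for Cyp7b1. For Gusb and Acsm3 it was lower, at −0.20 and −0.23. Of the genes well above background on all arrays, 5.80% exceeded the Kap value, 2.85% that of Odc1, and 0.648% that of Prlr, while the median gene was at 0.05. Without WT replicate 4, Kap differed by 0.37 (limma, unadjusted p = 0.0158) and Odc1 by 0.36 (limma, unadjusted p = 0.0191), both higher in Selenbp1-KO kidneys, and Prlr changed sign to 0.16. In that comparison the WT arrays lie on one slide side and the Selenbp1-KO arrays on the other, so side and genotype cannot be told apart, and 17585 probes passed the criterion in place of 4479. Within slide side 2, where the 3 Selenbp1-KO arrays are set against WT replicate 4 alone, Kap differed by −0.088, Odc1 by −0.26, and Prlr by −0.87, and only Prlr of the 6 had an unadjusted p under 0.05 (limma, 0.0137), a test that assumes that the lone WT array varies like the others. Gusb, Acsm3, and Cyp7b1 remained higher in both comparisons. Gusb differed by 0.01 without WT replicate 4 and 0.21 within the side, Acsm3 by 0.18 and 0.41, and Cyp7b1 by 0.25 and 0.11. When limma was run with an intensity trend and robust variances, Acsm3 (limma, unadjusted p = 0.00459) and Cyp7b1 (limma, unadjusted p = 0.00954) passed the criterion, both higher in Selenbp1-KO kidneys. With these options 7536 of all 56097 probes tested passed, 84.4% of them higher, in place of 4479.

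**Figure D3:**
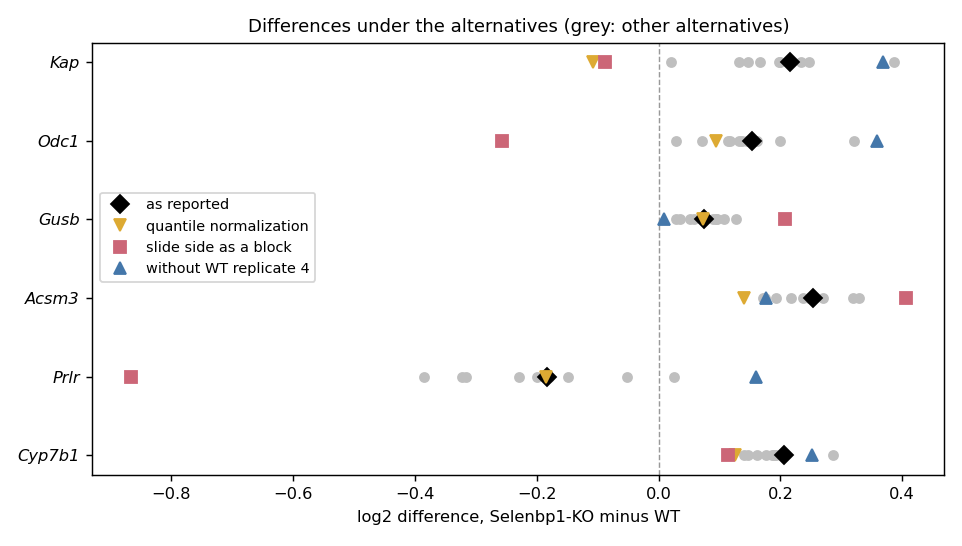
Log2 difference, Selenbp1-KO minus WT (x axis), of the 6 genes (y axis) as reported and under 19 alternatives. The square (slide side as a block) and the triangle (without WT replicate 4) lie on opposite sides of 0 for Kap, Odc1, and Prlr.

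Genes for enzymes that make or remove androgens, listed with genes of steroid binding and response, gave 1 call. Of 16 genes in the list, 11 were higher and 5 lower, with a median difference of 0.06 that turned to −0.02 with quantile normalization and −0.0099 when slide side was blocked. Srd5a1, a 5-alpha-reductase that converts testosterone to dihydrotestosterone, differed by 0.13 (standard error 0.13), and Akr1c21, a hydroxysteroid dehydrogenase, by 0.20 (standard error 0.15). The only gene of the list to pass as scaled here was Hsd17b1, which encodes a hydroxysteroid dehydrogenase of sex steroid synthesis. It was dim, well above background on 1 WT and 2 Selenbp1-KO arrays, and differed by 0.52 (standard error 0.20, limma, adjusted p = 0.279). It did not pass when slide side was blocked (0.47, limma, unadjusted p = 0.181), and with quantile normalization the coactivator gene Ncoa4 passed too (−0.23, limma, unadjusted p = 0.0470).

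Other genes known for higher expression in male kidneys had differences of both signs. Of 14 such genes, 8 had higher and 6 had lower means in Selenbp1-KO kidneys, and the median was 0.12 (0.02 with quantile normalization and −0.13 when slide side was blocked), and 2 passed the criterion. These were the fatty acid omega-hydroxylase genes Cyp4a12a, with a difference of −0.54 (standard error 0.13), and Cyp4a12b, with −0.57 (standard error 0.13), both lower in all 3 Selenbp1-KO kidneys than in any WT kidney (limma, adjusted p = 0.279 for each). The study chose these genes on these arrays. They are close paralogs, and whether each probe reads only 1 of them was not tested. With quantile normalization Cyp2e1, another cytochrome P450 gene, passed as well (−0.21, against −0.06 as scaled here). Slco1a1, an organic anion transporter gene, did not pass, with a difference of 0.52 (standard error 0.21, limma, unadjusted p = 0.0510). Nudt19, the classical androgen-induced RP2 gene, read 7.50, 7.71, and 8.19 in the WT kidneys, compared with 8.11, 8.00, and 7.74 in the Selenbp1-KO kidneys. It was thus highest in WT replicate 4, as the brighter Odc1 probe was. Slc7a13, an amino acid transporter gene of the proximal tubule, read 3.94, 3.81, and 4.78 in the WT kidneys, against 4.36 to 4.80 in Selenbp1-KO kidneys. In 10 of the 14 genes WT replicate 4 exceeded the mean of WT replicates 2 and 3, with a median of 0.26. It did so in 10927 of 18361 genes well above background on all arrays, with a median of 0.05. The same held for 5 of 8 genes known for higher expression in female kidneys, with a median of 0.06.

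Of 8 genes known for higher expression in female kidneys, 4 had higher and 4 had lower means in Selenbp1-KO kidneys, and the median was 0.04 (−0.12 when slide side was blocked). Akr1c18, encoding 20-alpha-hydroxysteroid dehydrogenase, passed the criterion with a difference of 0.62 (standard error 0.15, limma, adjusted p = 0.279). This gene and Cyp2a4 were among those the study chose on these arrays. Slc22a7, an organic anion transporter gene, differed by 0.36, the cytochrome P450 gene Cyp2a4 by −0.34, and Abcc4, an efflux transporter gene, by −0.18, without overlap and without passing as scaled here. Their calls depended on the setting. Cyp2a4 passed with quantile normalization (−0.44, limma, unadjusted p = 0.0160) and when slide side was blocked (−0.58, limma, unadjusted p = 0.0130). Abcc4 passed with quantile normalization (−0.20, limma, unadjusted p = 0.0219), and Slc22a7 when slide side was blocked (0.59, limma, unadjusted p = 0.0204). Slc7a12, an amino acid transporter gene, differed by −0.11 (standard error 0.50) over all arrays and by −1.18 when slide side was blocked (limma, unadjusted p = 0.0246). Thus 4 of the 8 genes passed under that block and 3 with quantile normalization. Of all 56097 probes tested, 3651 passed under the block and 4697 with quantile normalization. The block sets the Selenbp1-KO arrays against WT replicate 4 alone.

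**Figure D4:**
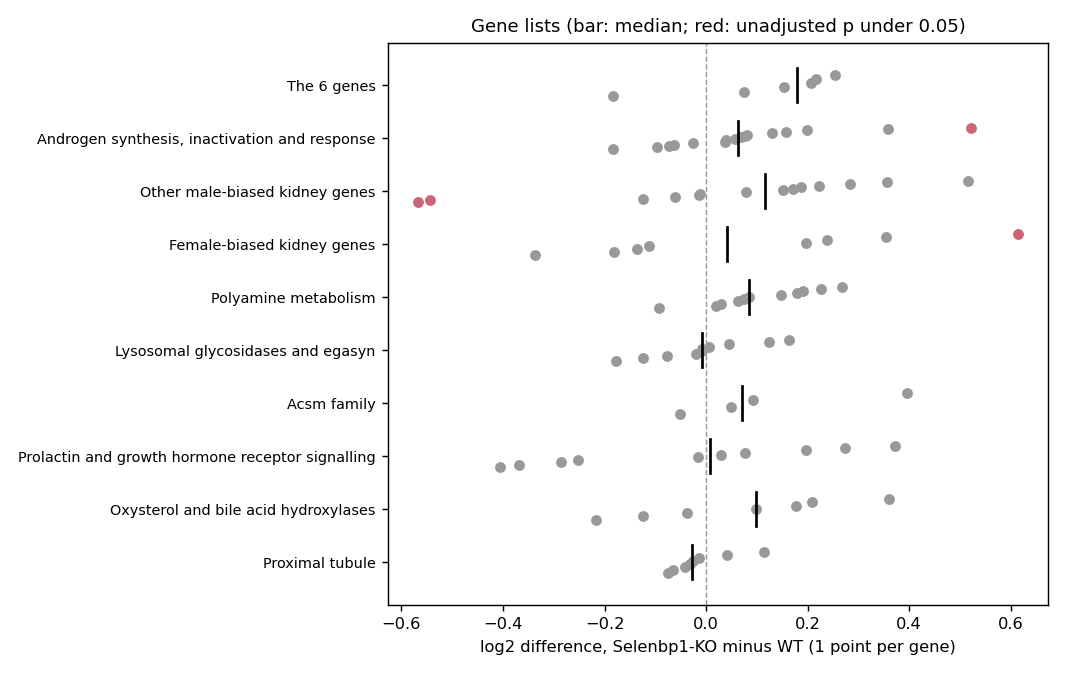
Log2 difference, Selenbp1-KO minus WT (x axis), of the genes of each list (y axis, 1 point per gene at its brightest probe), with the list median as a bar. Red points have an unadjusted p under 0.05 from limma; the 6 genes have none, the androgen list has 1 above 0 (Hsd17b1), the male-biased list 2 below 0, and the female-biased list 1 above 0.

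Genes that work with Odc1, Gusb, Acsm3, Prlr, and Cyp7b1 gave no call as scaled here. In polyamine metabolism, 10 of 11 genes were higher and 1 lower, with a median of 0.08, where 55.1% of the genes well above background on all arrays were higher. Oaz1, the antizyme that binds ornithine decarboxylase and sends it for degradation, differed by 0.23 (standard error 0.10, limma, unadjusted p = 0.0704), and no Selenbp1-KO array overlapped WT. Azin2, an antizyme inhibitor, and Smox, spermine oxidase, also did not overlap, with differences of 0.27 and 0.19. Both passed when slide side was blocked, Azin2 at 0.64 (limma, unadjusted p = 0.00265) and Smox at 0.35 (limma, unadjusted p = 0.0412). The lysosomal glycosidases with egasyn (Ces1e, which holds beta-glucuronidase in the endoplasmic reticulum) had 4 genes higher and 6 lower, with a median of −0.0081. Ces1e itself differed by −0.08, and Hexa, a hexosaminidase subunit, by 0.16 without overlap. In the Acsm family, Acsm1, Acsm2, and Acsm5 differed by 0.05, 0.09, and −0.05 (with quantile normalization −0.06, −0.03, and −0.07), and Acsm4 was not well above background on any array.

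In the prolactin and growth hormone receptor list 5 genes were higher and 5 lower, with a median of 0.01 (−0.07 with quantile normalization), and none passed as scaled here. The kinase gene Jak2 differed by −0.25 (standard error 0.12) and the transcription factor gene Stat5a by 0.20 (standard error 0.10), each without overlap. Both passed with quantile normalization, Jak2 at −0.26 (limma, unadjusted p = 0.0286) and Stat5a at 0.18 (limma, unadjusted p = 0.0419), and neither when slide side was blocked (−0.085 and 0.22). The feedback inhibitor genes Socs3 and Cish differed by −0.41 (standard error 0.41) and −0.37 (standard error 0.26), and Socs1 by 0.37 (standard error 0.19), with overlap. No array had Prl well above background. Of the oxysterol and bile acid hydroxylases 4 were higher and 3 lower, with a median of 0.10 (−0.04 with quantile normalization). Cyp46a1, a cholesterol hydroxylase, differed by 0.21 (standard error 0.11) without overlap, and Hsd3b7, which acts after the 7-alpha-hydroxylases, by 0.10 (standard error 0.096). Cyp7a1, the rate-limiting enzyme of bile acid synthesis in liver, and Cyp8b1, a sterol hydroxylase gene, were not well above background on any array. Cyp8b1 nevertheless had an unadjusted limma p of 0.0172 when slide side was blocked.

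The tissue carried its markers. All 8 proximal tubule genes were well above background on every array, 2 higher and 6 lower, with a median of −0.03, and their summed level lay between 8.73 and 8.94 in WT and between 8.79 and 8.86 in Selenbp1-KO kidneys (7 of the 8 genes, since 1 lacked a value on an array). WT replicate 4 had the highest sum. With quantile normalization 1 of the 8 genes passed, Slc27a2 (−0.11, against −0.03 as scaled here). Of 6 distal nephron genes 3 were higher and 3 lower, and Pvalb passed (0.32), and of 5 glomerulus genes 2 were higher and 3 lower, and Synpo passed (0.29). When slide side was blocked Pvalb passed again and Synpo did not (0.23, limma, unadjusted p = 0.163). The 3 red blood cell genes Hba-a1, Hbb-b1, and Alas2 were all higher in Selenbp1-KO kidneys and passed the criterion, with summed levels of 7.99 to 8.41 in WT and 8.49 to 9.06 in Selenbp1-KO kidneys. When slide side was blocked Hba-a1 did not pass (0.37, against 0.56 over all arrays; limma, unadjusted p = 0.220). All 5 macrophage genes were higher, and C1qa, C1qb, and Cd68 passed (summed levels of 3.30 to 3.52 against 3.55 to 3.67). Of these only Cd68 passed when slide side was blocked, with C1qa at 0.46 (limma, unadjusted p = 0.0644) and C1qb at 0.44 (limma, unadjusted p = 0.0905). The 5 fat genes were all higher with none passing, and their sum was lowest in WT replicate 4, at 4.60, and highest in Selenbp1-KO replicate 2, at 7.24. Their part in the values of the 6 genes was not tested, and in whole kidneys fewer cells of a type and less RNA per cell cannot be told apart. Cyp11a1, Cyp11b1, and Mc2r, 3 of 6 genes listed for the adrenal cortex, were well above background on no array. Of the others, Cyp21a1 was well above background on every array, and Star on 3 WT and 2 Selenbp1-KO arrays. They differed by 0.19 (standard error 0.23) and 0.03 (standard error 0.16), with overlap. Cyp17a1, whose enzyme makes androgen precursors, was well above background on all 6 and higher in Selenbp1-KO kidneys, by 0.44 (standard error 0.14, limma, adjusted p = 0.279), a call not made when slide side was blocked (0.30, limma, unadjusted p = 0.148). It read 1.77, 2.04, and 2.12 in the WT kidneys, compared with 2.43, 2.30, and 2.53 in the Selenbp1-KO kidneys. Whether Cyp17a1 marks adrenal cortex in these mice was not tested.

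The promoter windows of RefSeq (GRCm38.p6, 250 bases before to 50 after a transcription start) covered 5 of the 6 genes with 7 windows. The 6-letter core of the androgen and glucocorticoid receptor element, AGAACA on one strand or TGTTCT on the other, was in 1 of them, a start of Prlr, and in 19.0% of all 32851 windows. The exact palindrome, AGAACA and TGTTCT with 3 bases between them, was in none of the 7 and in 3 windows in all. Inexact matches were not searched for. The Prlr match is printed with this core in capitals. The core begins 12 bases before the start, and the printed stretch is chr15:10223882-10223911 on the plus strand.
Prlr promoter: gctgtgagtggcTGTTCTaggggactgcag

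The genes whose log2 signal followed each of the 6 most closely over the 6 arrays were named by a fixed rule, as a description only. They were H3c13 and Hist3h2ba, both histone genes, for Kap (Pearson r = 0.995 and 0.993 among 12030 genes). For Odc1 they were Cd72 and Kctd1 (0.992 and 0.991), for Acsm3 Dok7 and Pnp2 (0.991 and 0.986), for Cyp7b1 Uchl4 and Jtb (0.996 and 0.995), and for Prlr Gdap9 and Cdk14 (0.987 and 0.970). For Gusb both were transcripts without a gene name. None of the 6 genes was the closest to another of them. Each pair held the highest of many correlations, from 4131 genes for Prlr to 17837 for Gusb, over only 6 arrays. Whether such values exceed those of unrelated genes was not tested.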

How the data were processed

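RNA of 6 kidneys was labeled with Cy3 and hybridized to Agilent arrays. The authors deposited the Feature Extraction output of each array, with linear intensities that are background-subtracted and detrended but not scaled between arrays, a p-value of each spot against background, and quality flags. The file headers name software other than version 9.5.1.1 of the submitters' processing notes. The authors also deposited a table of quantile normalized intensities.

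Log2 intensities were set relative to the 75th percentile of each array (477 to 751), outlier spots were dropped, and replicate spots were averaged by probe. Testing was limited to the 56097 probes that the software detected (p under 0.05) on 1 or more arrays. The genotype difference was fitted for all of them in R 4.3.3 by limma 3.58.1 with its moderated two-sided test, called at an unadjusted p under 0.05, with Benjamini–Hochberg adjusted values over all probes beside it. A gene is represented by its brightest probe. The comparison was also run on simulated arrays, whose values are not reported here. Each array was of 1 mouse, and 3 arrays against 3 limit the precision: the smallest exact permutation p would be 0.10.

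Coordinates of probes are those of the files (mm9). Names come from accessions matched to a RefSeq table (32994 of 56605 probes) and otherwise from the files. List genes are named where they passed, did not overlap, or were among the 4 that differed most in a list, and others were named for their role after their values were seen. For each of the 6 genes the 2 genes of highest Pearson r were named. The genes and lists were chosen with earlier results of these data known. The alternatives were normexp background correction, quantile normalization, median scaling, the authors' quantile normalized values, 3 other filters, outlier spots kept, limma's trend and robust options, a t-test without moderation, the slide side and the replicate number as blocks, each array left out, the mean of a gene's probes, and adjusted p-values. Of 12 polyamine genes listed, Amd1 was not analysed here. In addition, 2 listed genes are not reported here.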

Additional observations from a re-analysis of the deposited data

How the results depend on the processing

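Each of the 6 genes was recomputed under 19 alternatives, which gave 114 differences. Some of these could not change sign. The other filters, limma's trend and robust options, and the t-test without moderation alter only the probes tested or the variance. They repeated the reported difference of every gene, as did keeping outlier spots. Kap has 1 probe, so the mean of a gene's probes repeated its value too. With these repeats counted, 109 of the 114 differences kept their sign. The other 5 were Kap with quantile normalization (−0.11), Kap and Odc1 when slide side was blocked (−0.088 and −0.26), and Prlr with the replicate number as a block (0.025) and without WT replicate 4 (0.16, from −0.38 to 0.16 over single arrays left out). Kap ranked from 4 to 9 by signal among the 56605 probes of an array, where quantile normalization sets its value by rank alone. With the authors' quantile normalized values Kap differed by 0.02. The number of the 6 genes with an unadjusted p under 0.05 was 0 as reported, 2 with limma's trend and robust options (Acsm3 and Cyp7b1), 1 when slide side was blocked (Prlr), and between 0 and 2 with single arrays left out, the 2 being Kap and Odc1 without WT replicate 4. None of the 6 passed after adjustment in any alternative. The lowest adjusted p was 0.0660 (limma, Benjamini–Hochberg), for Kap without WT replicate 4, where 12522 of 56097 probes passed after adjustment.

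The median difference of the 6 genes was 0.18 as reported, 0.013 when slide side was blocked, and from 0.083 to 0.21 under the others. The median of all genes was 0.13 as reported and 0.0037 with quantile normalization, where that of the 6 genes was 0.083.

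Over all probes 4479 passed, 81.1% of them higher. The count was 14616 with median scaling (93.6% higher), 2841 with probes well above background (64.7%), 7536 with trend and robust options, 18430 with the replicate block, 2 after adjustment, and from 2024 to 17585 with single arrays left out. It was 6328 with normexp correction (95.4%), 4697 with quantile normalization (53.8%), and 3651 when slide side was blocked (37.3%). The labels share replicate numbers 2 and 3 only. Deviations of same-numbered arrays from their group means correlated at 0.175 and 0.195 over 18364 genes, and nothing in the labels says that a number marks a shared litter or day. With the replicate block Kap differed by 0.39 and Odc1 by 0.32, and none of the 6 genes passed. The cause of these changes was not tested.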
